A study of Mus musculus with 6 samples.

Results

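The genes that make, move, export and store cholesterol were examined in brown adipose tissue (BAT) of cold-exposed mice with and without diphtheria toxin (DT). The 33 genes, of 25206 features on the arrays, were chosen by symbol and sorted by pathway step into 18 synthesis enzymes, 7 genes of control and intracellular transport and 8 genes of efflux and storage. The rule held no threshold on any measured value, but it was drawn up with the differences between DT and control mice on these same arrays already known. The differences, their intervals and the calls given for the members are therefore a description of these 6 mice, and nothing is inferred from their counts.

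All mice were FoxP3 DTR B6 females, in which Foxp3 gene regulatory elements drive the receptor for DT, so that the toxin is directed at regulatory T (Treg) cells throughout the body and not in BAT alone. Each was housed singly at 22°C for 1 week, injected intraperitoneally on 2 consecutive days with DT (3 mice, DT 5, DT 9 and DT 16) or with phosphate-buffered saline (PBS; 3 mice, PBS 12, PBS 18 and PBS 20), kept at 4°C from the first injection on and killed after 2 days in the cold. Labels and published results both name this temperature, while a milder one stands in the published methods. The sources used here do not state the ages of the mice, and no group without the transgene was arrayed. The values are log2 expression per gene, normalised so that all arrays share the same distribution (range 3.01 to 14.1, median 5.10). Differences are DT minus PBS, means are given ± SD with n = 3 mice per group, and a gene is called higher or lower where the limma adjusted p over all 25206 features was below 0.05.

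Cholesterol is built from acetyl-CoA through mevalonate, isoprenoid diphosphates and squalene, and the first sterol, lanosterol, is then trimmed and rearranged in the endoplasmic reticulum. The transcription factor SREBP2 (Srebf2) is held there by its escort Scap and the sterol-sensing Insig proteins, and when sterols are scarce it is released to activate most genes of the synthesis pathway, usually together with the CCAAT-binding factor NF-Y. Oxysterols act in the opposite sense through the liver X receptors (LXR, Nr1h2 and Nr1h3), which activate sterol exporters such as Abca1 and Abcg1, while surplus cholesterol is esterified by Soat1 and stored in droplets, a step for which lipid-laden macrophages are known.

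Because the synthesis genes are textbook targets of a common regulator, their promoters were searched for 3 short motifs, in windows of 300 bases (250 before and 50 after each gene start; RefSeq, GRCm38.p6). Windows were found for 27 of the 33 members, and not for Fdps, Fdft1, Sqle, Stard4, Npc1 and Abcg1, so that 4 of the 5 called members are not covered. The CCAAT box (letters CCAAT, either strand) was found in 14 of the 15 synthesis genes with a window, all but Acat2. It was also found in 4 of 5 control and transport genes, in 3 of 7 efflux and storage genes and in 41.1% of the 27025 genes in the table. The sterol regulatory element (SRE, letters TCACNCCAC, either strand) was found in 1 synthesis gene, Hmgcs1, in no efflux or storage gene and in 1.44% of all genes. The LXR element DR4 (letters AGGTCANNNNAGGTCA, either strand) was in no member window and in 0.0148% of all genes. With so strict a spelling, found in only 4 of 27025 genes, its absence from the members says nothing about them. Looser spellings of DR4 were not searched. Other motifs had been looked at before these letters were settled on. The SRE spellings CACCCCAC and TCACNCNAC were each found in 2 of the 15 synthesis genes (3.30% and 3.15% of all genes), the E-box CACGTG in 3 of 15 (8.09%) and the Sp1 box GGGCGG in 14 of 15 (38.2%). No test of these shares was made, and a match is a description of the letters only. Chosen after their values were seen, the windows of 4 synthesis genes and of the storage gene Soat1 are shown, since Hmgcs1 holds the SRE, Cyp51 and Sc5d had the 2 largest differences among synthesis genes with no passing call, Idi1 was the mevalonate gene nearest the threshold on its far side, and Soat1 had the largest difference in the other direction. Capitals mark CCAAT boxes (ATTGG on the opposite strand) and, in Hmgcs1, the SRE, and no 2 of these matches overlap.
Hmgcs1 promoter, chr13:119690101-119690400, + strand: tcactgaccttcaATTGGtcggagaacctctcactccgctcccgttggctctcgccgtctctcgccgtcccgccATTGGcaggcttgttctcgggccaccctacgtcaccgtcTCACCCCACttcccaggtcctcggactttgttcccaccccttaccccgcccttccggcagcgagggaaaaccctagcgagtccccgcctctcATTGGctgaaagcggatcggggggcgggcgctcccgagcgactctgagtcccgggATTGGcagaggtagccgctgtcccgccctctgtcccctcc
Idi1 promoter, chr13:8885356-8885655, + strand: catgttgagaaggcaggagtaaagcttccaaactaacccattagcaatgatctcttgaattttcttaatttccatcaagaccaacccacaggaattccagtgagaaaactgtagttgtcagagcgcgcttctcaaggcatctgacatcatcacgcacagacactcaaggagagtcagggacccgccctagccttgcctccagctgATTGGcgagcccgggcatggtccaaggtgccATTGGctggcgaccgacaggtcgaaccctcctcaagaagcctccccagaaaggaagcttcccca
Cyp51 promoter, chr5:4104648-4104947, - strand: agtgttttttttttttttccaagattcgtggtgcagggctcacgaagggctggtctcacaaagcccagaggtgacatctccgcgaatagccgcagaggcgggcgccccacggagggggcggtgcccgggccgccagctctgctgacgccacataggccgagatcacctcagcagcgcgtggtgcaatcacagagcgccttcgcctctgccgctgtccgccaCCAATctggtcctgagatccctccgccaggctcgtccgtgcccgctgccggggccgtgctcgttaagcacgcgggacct
Sc5d promoter, chr9:42264251-42264550, - strand: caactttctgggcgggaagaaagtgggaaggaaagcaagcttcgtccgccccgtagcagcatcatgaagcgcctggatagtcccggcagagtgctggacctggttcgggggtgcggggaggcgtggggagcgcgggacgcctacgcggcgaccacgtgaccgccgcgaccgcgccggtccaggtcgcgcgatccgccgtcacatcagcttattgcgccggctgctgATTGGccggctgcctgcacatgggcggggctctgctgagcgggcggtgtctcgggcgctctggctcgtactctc
Soat1 promoter, chr1:156474279-156474578, - strand: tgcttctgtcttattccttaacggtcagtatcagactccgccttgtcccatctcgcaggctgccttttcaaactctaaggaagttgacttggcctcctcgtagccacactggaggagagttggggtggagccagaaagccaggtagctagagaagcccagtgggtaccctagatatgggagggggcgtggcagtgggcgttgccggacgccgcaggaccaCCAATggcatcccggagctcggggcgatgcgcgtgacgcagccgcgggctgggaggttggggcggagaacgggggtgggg

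The Hmgcs1 window held 4 CCAAT boxes and the SRE, which began 137 bases before the gene start (position -137). Idi1 held 2 CCAAT boxes, at positions -45 and -14, whereas Cyp51, Sc5d and Soat1 held 1 each, at -29, -24 and -30. Mvk had the most among the synthesis genes, 5, and Hmgcs1 and Nsdhl had 4 each. Of the efflux and storage genes, Mylip held 3 CCAAT boxes, Cyp27a1 held 2 and Soat1 held 1, and Nr1h2, Nr1h3, Abca1 and Ch25h held none.

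**Figure D1:**
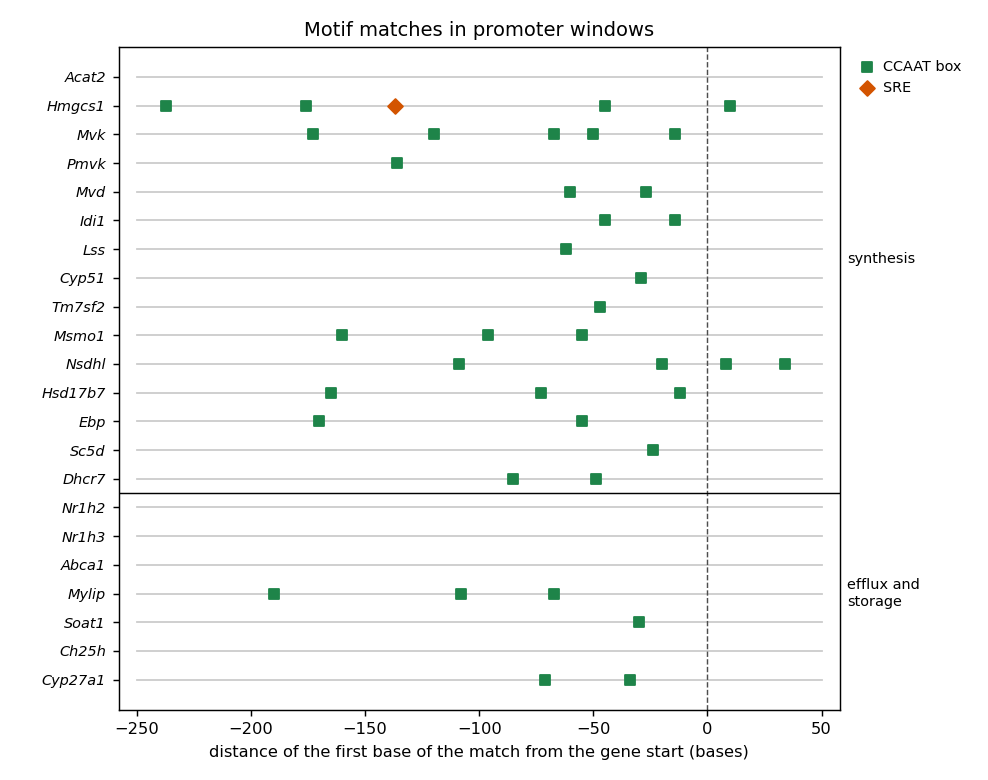
Positions of CCAAT boxes (squares) and of the SRE (diamond) in the promoter windows of 15 synthesis genes and 7 efflux and storage genes, as distance in bases of the first base of each match from the gene start (dashed line; where a gene has several starts, each match is placed from its own). A total of 14 of the 15 synthesis genes and 3 of the 7 efflux and storage genes hold a CCAAT box. The control and transport genes, 4 of 5 with a CCAAT box, are not drawn.

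Across the whole array 436 of 25206 features were called, which is 1.73%, with 0.444% called lower and 1.29% called higher in DT. Foxp3 itself gave a weak signal of 4.30 to 4.49 in DT and 4.41 to 4.72 in PBS, and its groups overlapped, so the arrays do not check the depletion. The study reported the depletion from real-time RT-PCR of Foxp3 in BAT and spleen. Genes of brown adipocytes were not called (0 of 12, mean list level 12.32 to 12.39 in DT and 12.28 to 12.34 in PBS). Ucp1 was at 13.98 or more in all arrays, near the top of the range, where differences are compressed. In 4 of the 12 (Cidea, Prdm16, Cox7a1 and Cox8b) every DT array lay below every PBS array, against 10.1% of all features. In 2 (Dio2 and Fabp4) every DT array lay above, against 8.51%. By real-time RT-PCR on more mice, the study reported thermogenic genes to be lower in BAT after DT. Macrophage genes were called higher in 4 of 14 cases (Cd68, Itgam, Msr1 and Ctss; mean list level 7.61 to 7.68 in DT and 6.74 to 7.05 in PBS), fibroblast genes in 4 of 7 (Col1a1, Col1a2, Col3a1 and Pdgfra; 9.64 to 9.82 against 8.84 to 9.23) and proliferation genes in 6 of 10 (Mki67, Top2a, Cdk1, Ccnb1, Mcm6 and Rrm2; 6.56 to 6.62 against 5.48 to 5.75). No gene was called among 6 neutrophil, 7 T cell, 5 B cell, 6 endothelial or 6 skeletal muscle genes, where Csf3r (0.57), Cd4 (-0.30), Pax5 (-0.19), Emcn (-0.27) and Myh1 (0.16) had the smallest p, as Dio2 (0.40) had among the brown adipocyte genes. Skeletal muscle genes varied from mouse to mouse without regard to group, from 6.53 in DT 16 to 10.10 in DT 9. In such bulk tissue fewer cells of a type and less RNA per cell cannot be told apart.

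The synthesis enzymes had lower mean values in DT, least clearly at the first steps (Acat2 and Hmgcs1), and 3 of them passed the test. All 18 had a difference below 0, as had 54.0% of all features, and in 16 of the 18 every DT array lay below every PBS array, a pattern found in 10.1% of all features. Their median difference was -0.53 against -0.01 over all features. Of the 18, the 3 enzymes Fdps, Fdft1 and Sqle were called lower, against 0.444% of all features. None was called higher, against 1.29% of all features, and 15 did not pass the threshold. At an unadjusted p below 0.05, 16 of the 18 were lower, against 6.83% of all features, and none was higher, against 6.43%. The 7 enzymes from acetyl-CoA to farnesyl diphosphate had a median difference of -0.40, and the 11 from squalene to cholesterol one of -0.63.

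**Figure D2:**
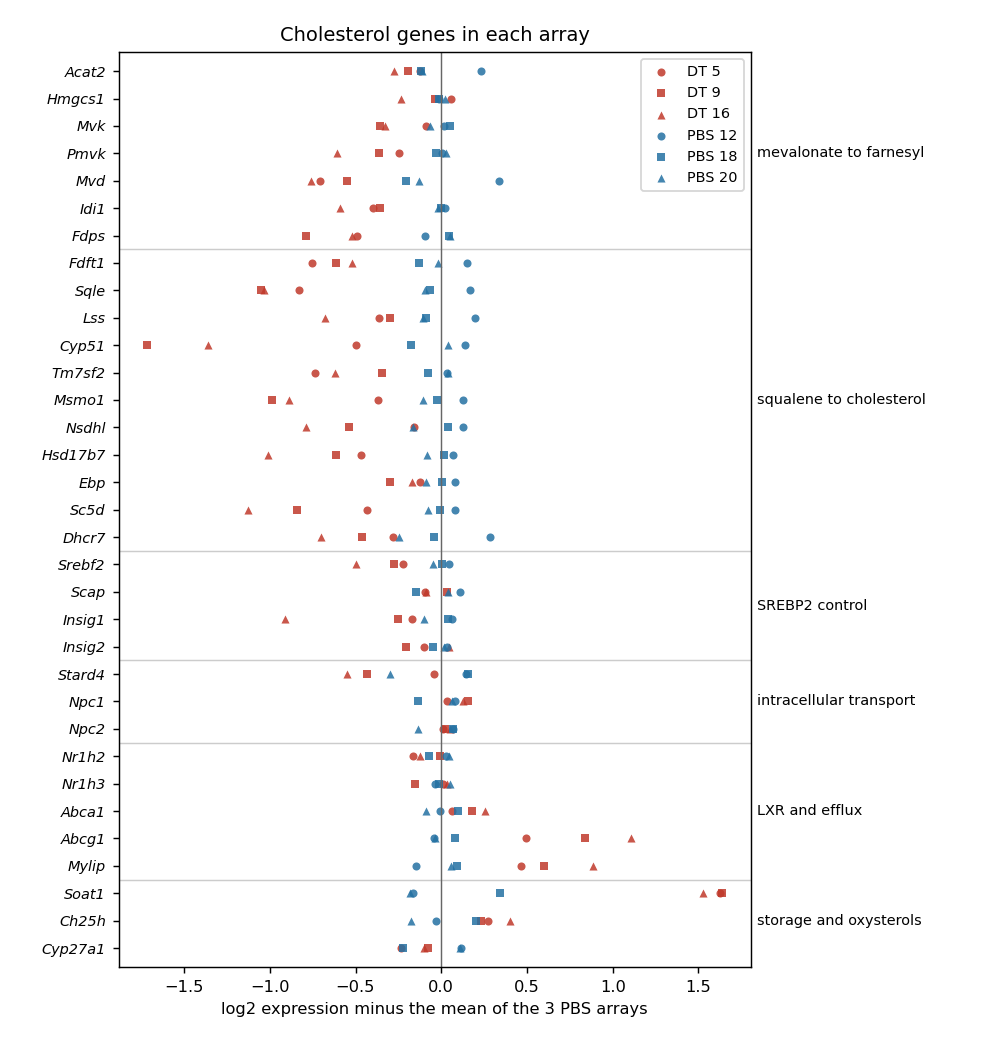
Log2 expression of each of the 33 genes in each of the 6 arrays, minus the mean of the 3 PBS arrays of that gene, in pathway order (red, DT; blue, PBS). For 16 of the 18 synthesis enzymes the DT points lie entirely to the left of the PBS points, while Abcg1, Mylip and Soat1 lie to the right.

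The smallest differences were those of Hmgcs1, among the early enzymes, and of Ebp and Acat2. Acat2, the thiolase that joins 2 acetyl-CoA units, was at 10.87, 10.80 and 10.72 in DT 5, DT 9 and DT 16 and at 11.22, 10.87 and 10.88 in PBS 12, PBS 18 and PBS 20. Its groups were barely apart, with DT 5 at 10.866 and PBS 18 at 10.871 (difference -0.20, adjusted p = 0.537). Hmgcs1, which makes HMG-CoA in the cytosol, was at 11.00 ± 0.15 in DT and 11.08 ± 0.02 in PBS, and its groups overlapped (difference -0.07, 95% interval -0.28 to 0.14, adjusted p = 0.824). It was thus the synthesis enzyme with the smallest difference. The kinases Mvk and Pmvk, which phosphorylate mevalonate in turn, differed by -0.26 (SE 0.09, adjusted p = 0.293) and -0.40 (SE 0.10, adjusted p = 0.134). Mvd, the decarboxylase that yields the first isoprenoid unit, was at 6.11, 6.27 and 6.06 in DT and at 7.15, 6.61 and 6.69 in PBS. The groups did not overlap, but PBS 12 stood above the other PBS arrays and the difference of -0.67 (SE 0.15) did not pass (adjusted p = 0.0908).

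Idi1, the isomerase of isopentenyl diphosphate, was at 8.17, 8.21 and 7.98 in DT 5, DT 9 and DT 16 and at 8.59, 8.56 and 8.54 in the PBS arrays. The PBS mice were close to each other (SD 0.02) and all DT mice lay below them, yet at a difference of -0.45 (SE 0.08) Idi1 stood just outside the threshold (adjusted p = 0.0546). Fdps, which builds the farnesyl diphosphate shared by sterols and protein prenylation, was at 7.93, 7.62 and 7.90 in DT and at 8.32, 8.46 and 8.46 in PBS. It fell by 0.60 on the log2 scale (SE 0.10), to 66.0% of the PBS level, and lay just inside the threshold (adjusted p = 0.0388). Its call was lost when any 1 array was left out, with adjusted p between 0.0671 and 0.142.

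Squalene formation and oxidation, the steps that commit the pathway to sterols, held the other called enzymes. Fdft1, squalene synthase, was at 10.24, 10.38 and 10.47 in DT 5, DT 9 and DT 16 and at 11.14, 10.87 and 10.97 in PBS 12, PBS 18 and PBS 20, without overlap. It fell by 0.63 (SE 0.10, adjusted p = 0.0310), to 64.7% of the PBS level. Leaving out PBS 18 kept this call, and leaving out any other array lost it (adjusted p up to 0.108). Sqle, squalene epoxidase, a slow and tightly controlled oxygen-dependent step, was at 7.73, 7.52 and 7.53 in DT and at 8.73, 8.50 and 8.47 in PBS. It fell by 0.97 (SE 0.10), to 51.0% of the PBS level (adjusted p = 0.00770), and was the only synthesis enzyme whose call held with each array left out in turn (adjusted p 0.0189 to 0.0445).

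The enzymes that turn lanosterol into cholesterol differed by -0.20 to -1.19, and none of the 8 passed. Cyp51, the lanosterol demethylase, had the largest difference of the synthesis enzymes, at 7.54, 6.32 and 6.67 in DT 5, DT 9 and DT 16 against 8.18, 7.86 and 8.08 in PBS 12, PBS 18 and PBS 20. The groups were apart, but the DT values spread over more than a log2 unit, with DT 5 close to the PBS arrays, and the difference of -1.19 (SE 0.29, 95% interval -1.86 to -0.52) did not pass (adjusted p = 0.117). Without DT 5, its DT value nearest the PBS arrays, it was called, at -1.54 (adjusted p = 0.0138). Without any other array it was not called (adjusted p up to 0.316). Msmo1, the methyl sterol oxidase, was also highest among DT mice in DT 5, at 8.28, 7.66 and 7.77 in DT and 8.65 ± 0.12 in PBS, with a difference of -0.75 (adjusted p = 0.0881). Sc5d, which introduces the double bond of 7-dehydrocholesterol, was at 10.25, 9.84 and 9.55 in DT and 10.68 ± 0.08 in PBS, with a difference of -0.80 (adjusted p = 0.0767). Msmo1 and Sc5d were also called when DT 5 was left out (adjusted p = 0.0216 and 0.0256). Neither was called without any other array (adjusted p up to 0.272 and 0.232).

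Hsd17b7, the 3-keto sterol reductase, was at 8.48, 8.34 and 7.94 in DT against 9.02, 8.97 and 8.87 in PBS (difference -0.70, SE 0.14, adjusted p = 0.0677). Tm7sf2, a sterol reductase of the nuclear and endoplasmic reticulum membrane, was at 6.66, 7.05 and 6.78 against 7.43, 7.32 and 7.44 (difference -0.57, SE 0.11, adjusted p = 0.0638). Tm7sf2 was called with DT 9, its highest DT value, left out (adjusted p = 0.0468), and with no other array left out (adjusted p up to 0.216). The groups of both genes were apart. Lss, the cyclase that makes lanosterol, differed by -0.45 (SE 0.13, adjusted p = 0.198), the decarboxylating dehydrogenase Nsdhl by -0.50 (SE 0.16, adjusted p = 0.250), the isomerase Ebp by -0.20 (SE 0.08, adjusted p = 0.374) and Dhcr7, the 7-dehydrocholesterol reductase, by -0.48 (SE 0.16, adjusted p = 0.247). Of these 4, Nsdhl alone overlapped, through DT 5 at 10.56 and PBS 20 at 10.55.

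**Figure D3:**
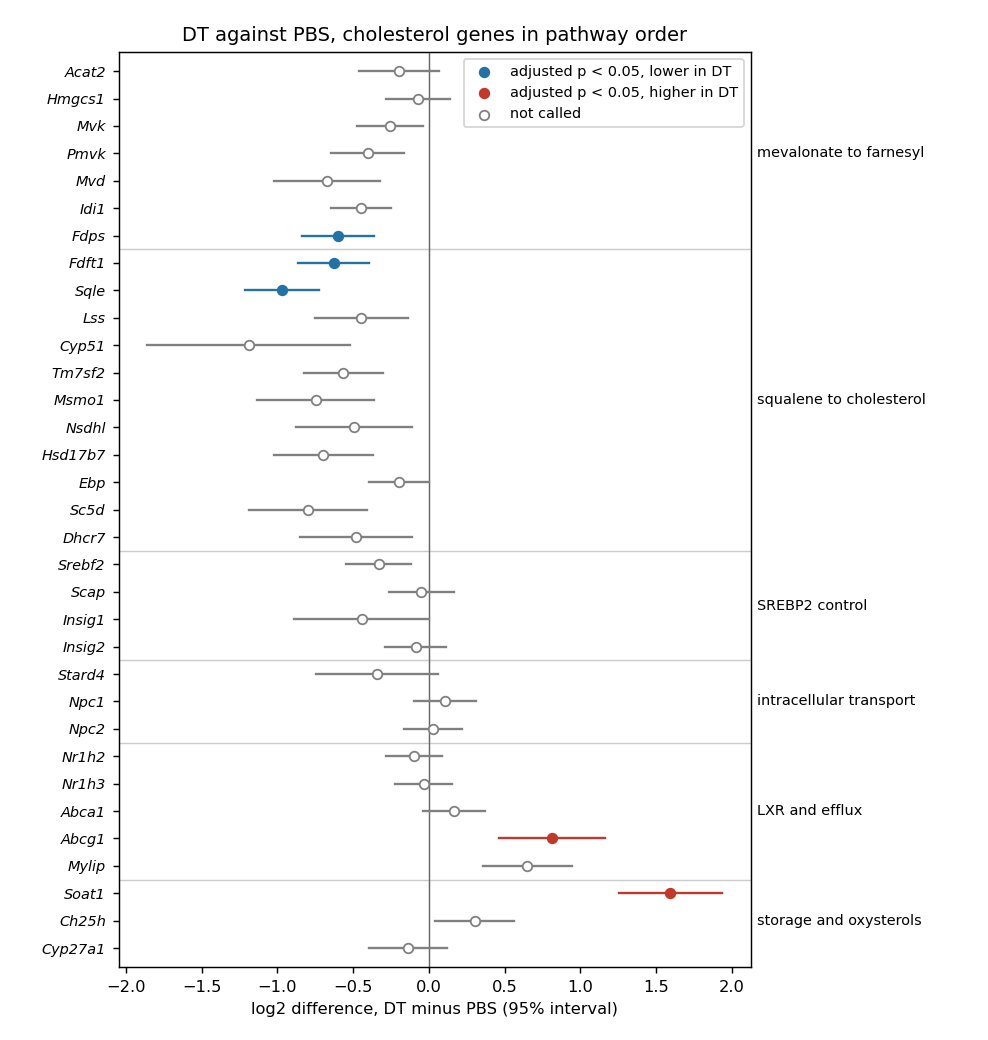
Log2 difference, DT minus PBS, of the 33 genes in pathway order with 95% intervals of the limma fit (3 arrays per group). Filled points passed an adjusted p of 0.05 over all features (Fdps, Fdft1 and Sqle lower, Abcg1 and Soat1 higher) and open points did not. All 18 synthesis enzymes lie left of 0.

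None of the 7 genes of control and transport was called, against 1.73% of all features, so this count is no result about them. The 4 genes of SREBP2 control and Stard4 had differences below 0, as had 54.0% of all features. Npc1 and Npc2 lay above 0. Srebf2, which encodes SREBP2 and is itself one of its targets, was at 8.81, 8.76 and 8.54 in DT 5, DT 9 and DT 16 and at 9.08, 9.04 and 8.99 in the PBS arrays. The groups did not overlap, and the difference was -0.33 (SE 0.09, 95% interval -0.55 to -0.12, adjusted p = 0.173). Insig1, the sterol-induced retention protein and also a target of SREBP2, was at 11.50, 11.42 and 10.76 in DT and at 11.74, 11.71 and 11.57 in PBS. DT 16 stood far below the other arrays, and the difference of -0.44 (SE 0.19, adjusted p = 0.373) moved to -0.21 without it. Scap, the escort of SREBP2, and Insig2, the second retention protein, overlapped between the groups, with differences of -0.05 (95% interval -0.26 to 0.16) and -0.09 (-0.29 to 0.12).

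Stard4, a cytosolic sterol carrier and SREBP2 target, was at 5.92, 5.53 and 5.42 in DT and at 6.11, 6.12 and 5.66 in PBS, with overlap (difference -0.34, SE 0.17, adjusted p = 0.469). Npc1 and Npc2, the membrane and soluble proteins that release cholesterol from lysosomes, differed by 0.11 (95% interval -0.10 to 0.31) and 0.03 (-0.17 to 0.22), and both overlapped between the groups. Npc1 was at 9.69, 9.81 and 9.79 in DT and at 9.73, 9.52 and 9.72 in PBS.

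Both efflux and storage genes that passed the test were higher in DT. Of the 8, Abcg1 and Soat1 were called higher and none was called lower, against 1.29% and 0.444% of all features, and in 4 (Abcg1, Mylip, Soat1 and Ch25h) every DT array lay above every PBS array, as in 8.51% of all features. Their median difference was 0.23. The receptors themselves were not called, with Nr1h2 (LXR beta) at 9.42 ± 0.08 in DT and 9.52 ± 0.06 in PBS and Nr1h3 (LXR alpha) at 10.56 ± 0.10 and 10.60 ± 0.05. The intervals of their differences ran from -0.28 to 0.09 and from -0.22 to 0.15, and both overlapped between the groups.

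Abcg1, the transporter that loads cholesterol onto lipoprotein particles, was at 8.74, 9.08 and 9.35 in DT 5, DT 9 and DT 16 and at 8.20, 8.32 and 8.20 in PBS 12, PBS 18 and PBS 20. It rose by 0.81 (SE 0.15), which is 1.76-fold, and lay just inside the threshold (adjusted p = 0.0488). The call held without DT 5 (adjusted p = 0.0240) and was lost without any other array (adjusted p up to 0.174). Mylip, the LXR-induced ubiquitin ligase that directs lipoprotein receptors to degradation, was at 9.69, 9.82 and 10.11 in DT and at 9.07, 9.31 and 9.28 in PBS. Its difference of 0.65 (SE 0.13, 1.57-fold) stood just outside (adjusted p = 0.0595). Abca1, the exporter to lipid-poor apolipoprotein, overlapped between the groups, at 10.50, 10.62 and 10.70 against 10.43, 10.53 and 10.35 (difference 0.17, 95% interval -0.04 to 0.37, adjusted p = 0.482).

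Soat1, the acyltransferase that esterifies cholesterol for storage, had the largest difference of all 33 genes. It was at 7.94, 7.95 and 7.84 in DT 5, DT 9 and DT 16 and at 6.15, 6.66 and 6.14 in PBS 12, PBS 18 and PBS 20, and rose 3.02-fold (log2 difference 1.60, SE 0.15, adjusted p = 0.00435). The call held with each array left out in turn (adjusted p 0.00144 to 0.0297). The DT arrays agreed within 0.06 (SD), while among the PBS arrays PBS 18 stood above the others. PBS 18 was also the PBS array with the most signal of the macrophage protein Cd68, at 8.93 against 8.59 in PBS 12 and 8.44 in PBS 20, and Cd68 was at 10.46 to 10.52 in DT. With the group means removed, Soat1 had a Pearson r of 0.95 with Cd68 and 0.92 with the mean of the macrophage genes over the 6 arrays. For Ch25h these were 0.86 and 0.79, and Cyp27a1 went the other way (-0.83 and -0.95). So did Scap (-0.66 and -0.95) and Npc1 (-0.77 and -0.94) from the control and transport genes. Cd68 varied less among the DT arrays (SD 0.03) than among the PBS arrays (SD 0.25). Such r therefore rest mostly on the 3 PBS arrays, PBS 18 above all. No p is given for these values, and the part of macrophage number in the Soat1 values was not tested. Ch25h, which makes an oxysterol ligand of LXR, gave a weak signal below the array median in every array, at 4.38, 4.33 and 4.51 in DT and 4.07, 4.31 and 3.93 in PBS (difference 0.30, adjusted p = 0.297). Cyp27a1, a mitochondrial sterol hydroxylase, overlapped (difference -0.14, adjusted p = 0.692).

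Set side by side in each mouse, the synthesis enzymes and the efflux and storage genes parted in all 3 DT mice. Relative to the PBS mean, the synthesis enzymes were on average at -0.39, -0.58 and -0.68 in DT 5, DT 9 and DT 16, and at 0.11, -0.05 and -0.06 in PBS 12, PBS 18 and PBS 20. The efflux and storage genes were at 0.32, 0.41 and 0.50 in DT and at -0.04, 0.06 and -0.03 in PBS. These means rest largely on Soat1, Abcg1 and Mylip, and the medians of the 8 genes were lower, at 0.17, 0.20 and 0.33 in DT 5, DT 9 and DT 16. The gap between the means of the 2 groups of genes was 0.71 in DT 5, 0.98 in DT 9 and 1.18 in DT 16, and -0.14, 0.11 and 0.04 in PBS 12, PBS 18 and PBS 20. These are descriptions of the lists as chosen, with no test. The macrophage, fibroblast and proliferation genes given above moved with the same contrast, at a mean list level higher in every DT than in every PBS array, and their part in either group of genes was not tested. The brown adipocyte genes, had list levels that overlapped between the groups.

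**Figure D4:**
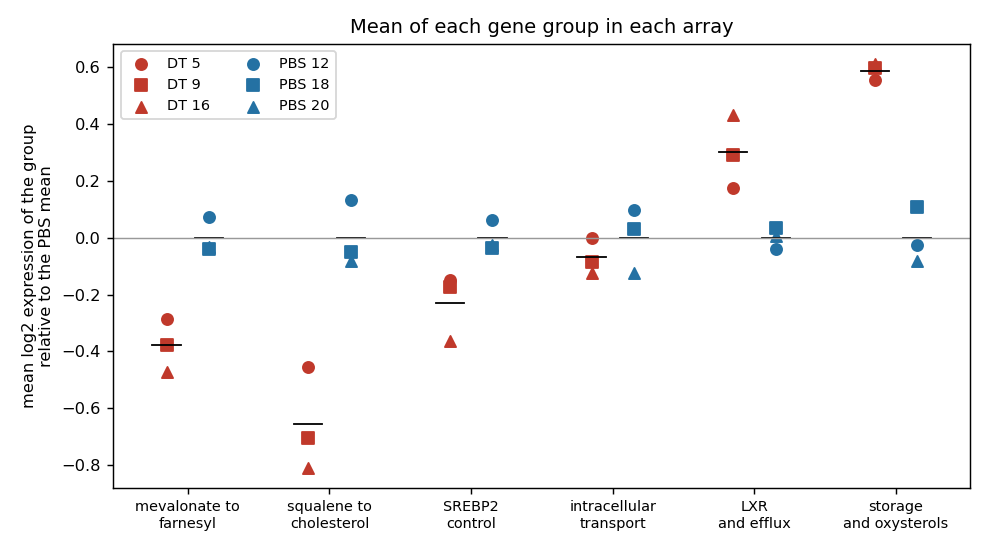
Mean log2 expression of each of the 6 gene groups in each array, relative to the mean of the 3 PBS arrays (points, arrays; horizontal lines, group means, which are 0 for PBS by construction). The DT arrays lie at -0.46 to -0.81 for the genes from squalene to cholesterol and at 0.56 to 0.61 for the 3 genes of storage and oxysterols, whose mean rests on Soat1 (their median difference was 0.30).

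The 3 DT mice also differed among themselves. Of the 18 synthesis enzymes, 13 were highest within the DT group in DT 5 and 10 were lowest in DT 16, whereas of the 8 efflux and storage genes 5 were lowest in DT 5 and 5 highest in DT 16. DT 16 was also the array with the lowest skeletal muscle signal (mean list level 6.53, against 9.83 in DT 5 and 10.10 in DT 9), whose part in this order was not tested. Pairs of genes were also correlated with the group means removed, which takes the contrast of DT with PBS out. Over the 6 arrays, 119 of 153 pairs of synthesis enzymes had a Pearson r above 0, and 76 above 0.5 (median r = 0.46). Of 144 pairs of a synthesis enzyme with an efflux or storage gene, 42 had r above 0 and 8 above 0.5 (median r = -0.25). Such shares over pairs of all features were not computed. Outside the enzymes, Srebf2 (r = 0.84, rho = 0.94), Stard4 (r = 0.81, rho = 0.77) and Insig1 (r = 0.76, rho = 0.94) followed the mean of the synthesis enzymes from mouse to mouse, and Mylip (r = -0.94, rho = -0.94) and Abcg1 (r = -0.87, rho = -0.83) ran against it. Other members did not follow it closely, with r of 0.21 for Scap, -0.24 for Insig2, -0.11 for Npc1 and 0.16 for Npc2. Of the other efflux and storage genes, Abca1 was at -0.60 and the rest lay between -0.23 and -0.09. Without the 2 arrays farthest from the median, r was 0.99 for Srebf2, 0.46 for Stard4, 0.99 for Insig1, -0.93 for Mylip and -0.84 for Abcg1. Fdps, Fdft1 and Tm7sf2 were the enzymes with r below 0 (r = -0.10, -0.22 and -0.35). Among the 18 enzymes r was less steady. Without the 2 farthest arrays it was below 0 for 6 of them, with Sqle going from 0.90 to -0.47, Cyp51 from 0.63 to -0.61, Ebp from 0.55 to -0.71 and Msmo1 from 0.84 to -0.21, while Tm7sf2 went to 0.43. These values rest on 6 deviations from 2 means, and those without the 2 farthest arrays on even fewer. The genes share RNA and normalisation, and no p is given.

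The wider pathway, given by 51 further genes in 4 lists, had 2 genes called lower and 1 called higher, against 0.444% and 1.29% of all features. Srebf1, which encodes SREBP1, the relative of SREBP2 that mainly drives fatty acid synthesis, was at 9.86, 9.88 and 9.81 in DT 5, DT 9 and DT 16 and at 10.41, 10.21 and 10.34 in PBS 12, PBS 18 and PBS 20. It fell by 0.47 (SE 0.08, adjusted p = 0.0371), and the groups did not overlap. This call held without PBS 18 and was lost without any other array (adjusted p up to 0.152). Lrp1, a large endocytic receptor for lipoprotein remnants that macrophages and fibroblasts also carry, was at 10.56, 10.50 and 10.70 in DT and at 9.93, 10.08 and 9.89 in PBS. It rose by 0.62 (SE 0.09, adjusted p = 0.0229), again without overlap, and its call too was kept only without PBS 18 (adjusted p up to 0.0943 otherwise).

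By list, 1 of 10 further synthesis-related genes was called lower, 1 of 9 further genes of SREBP control lower, 1 of 16 genes of uptake and transport higher, and none of 16 further LXR targets and genes of efflux and storage. In the last list the phosphodiesterase-like Smpdl3a had the smallest p, at 11.67 ± 0.01 in DT and 11.53 ± 0.03 in PBS (difference 0.14, adjusted p = 0.429). Aacs, which activates acetoacetate for sterol synthesis and was singled out after its values were seen, had the largest difference of the 10 further synthesis-related genes, -0.89 (SE 0.20), and did not pass (adjusted p = 0.0899). The median difference of the 51 genes was -0.02, against -0.01 over all features. By list it was -0.10 for synthesis-related genes, with 9 of 10 below 0, and -0.08 for SREBP control. For uptake and transport it was 0.06. For LXR targets, efflux and storage it was -0.01, with 8 genes below 0 and 8 above.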

How the data were processed

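BAT RNA of each mouse was measured on 1 Affymetrix GeneChip array. The deposited log2 values, 1 per Entrez gene, were made by the authors with a custom chip definition file and quantile normalisation, and the submitters' processing notes name RMA, with no version given in the sources used here. Sorted values differed between arrays by at most 0.00179, so a shift of all genes in 1 group is removed, and weak and very bright genes are compressed. Arrays have no read depth, and their number limits the precision.

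Members were found through the Entrez number of each feature, 30 by platform annotation and RefSeq alike and 3 (Acat2, Nr1h2 and Soat1) by RefSeq alone. The members and lists were chosen with earlier results of these data known. All 51 further pathway genes and 73 of 74 marker genes were matched in the same way. A match by the symbols of the platform annotation alone, which keeps 41 pathway genes, was tried after the values of all listed genes had been seen and is given as an alternative. The letters of the SRE were settled on after other spellings had been searched. All members were named, with arrays given for those called or of smallest p in their group and for others where the arrays show the spread. Of the other lists, called genes were named, or the gene of smallest p. Array values given beyond this, and Aacs, were chosen after they were seen. Some listed pathway genes, 1 of those called lower among them, are counted but not reported here by name.

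DT was compared with PBS with limma (version 3.58.1, R 4.3.3; lmFit and eBayes, 2-sided, Benjamini-Hochberg over 25206 features), checked on simulated data. The mixed-model analysis of variance of the study was not repeated. The p-values measure the spread between mice. Alternatives were 3 normalisations, 2 filters on low signal, 3 variance models and leaving out each array. Windows around gene starts came from RefSeq, and no list was tested.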

Additional observations from a re-analysis of the deposited data

How the results depend on the processing

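All 18 synthesis enzymes kept a difference below 0 under 13 of the 14 alternative settings, and without DT 16 the value of Hmgcs1 turned to 0.01. Several of these settings could not change a sign. The 2 filters on low signal, the intensity trend with robust prior and the unmoderated model leave each difference as it is. A second quantile normalisation and centring on the array median barely move values that are already normalised. Medians of both groups of genes stayed within the spread between arrays. The count of synthesis enzymes called lower, 3, was 6 without features below the median signal, 7 with an intensity trend and robust prior, and 0 by a linear model without moderation, which called 0 features in all but gave 13 synthesis enzymes at an unadjusted p below 0.05. It ranged from 1 (without DT 16, PBS 12 or PBS 20) to 4 with arrays left out. Efflux and storage genes called higher, 2, were 0 without moderation and 1 to 2 with arrays left out, being 1 without every array but DT 5. Of the further pathway genes, those called lower, 2, were 0 without moderation and 0 to 1 with arrays left out, and 1 with lists limited to symbols in the platform annotation, a setting chosen after seeing the data. Those called higher, 1, were 2 with an intensity trend, 0 without moderation and 0 to 1 with arrays left out. Both counts were 0 without DT 9, DT 16, PBS 12 or PBS 20. Idi1 and Mylip were called without features below the median signal (adjusted p = 0.0377 and 0.0427) and with the trend (adjusted p = 0.0249 and 0.00998). With limma, leaving out DT 9, DT 16, PBS 12 or PBS 20 also lowered the calls over all features, from 436 to between 135 and 147; the fits with 5 arrays have fewer samples. No paired analysis was possible because the groups share no animal number.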
